A study of Mus musculus with 12 samples.

Results

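Strong tetanization of ventral CA1 joined by 100 Hz stimulation of the basolateral amygdala was compared with basal stimulation in acute mouse brain slices, over every gene expressed well enough to be tested. The genes were those that passed a filter on low counts (at least 10 counts, relative to the median library, in at least 3 libraries, and 15 in total), 19492 of 55471 gene IDs, of which 35834 had at least 1 read. Ventral CA1 is the output field of the ventral hippocampus and exchanges fibres with the basolateral amygdala, a nucleus tied to emotional arousal. Slices were frozen 30 min after stimulation, and RNA of the dissected field was sequenced. The STET_S100 group received 1 train of 100 pulses at 100 Hz in the basolateral amygdala and 3 trains of 100 pulses at 100 Hz in ventral CA1, the tetanization called STET, which induces late long-term potentiation. Control slices carried the same electrodes and were given only basal pulses. Each group held 3 libraries, and both came from male C57BL/6J mice, wild type and 5 to 7 weeks old. Per the labels' protocols, every library pooled 6 slices, each mouse gave 4 slices, 1 to each of the study's 4 groups, and slices of 400 µm rested for at least 3 h before recording. The remaining groups, STET alone and STET with a second form of amygdala stimulation (STET_S200), entered the same fit and are used here only beside the main comparison. The labels of STET_S200 name 200 Hz and then give the train as 100 pulses at 100 Hz, so how its stimulation differed from that of STET_S100 is not settled. By the protocols the 4 groups shared mice, and which libraries did so is not stated, so p-values measure the spread between these pools.

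Strong synaptic activity lets calcium into neurons through NMDA receptors and voltage-gated calcium channels, and the kinases and phosphatases it engages act on transcription factors that need no new protein, such as CREB and SRF. These switch on immediate early genes within minutes. Some encode transcription factors (Fos, Npas4, Egr1), some act at synapses (Arc, Homer1, Bdnf), and some limit the response (Dusp1, Btg2, Zfp36). In the hippocampus these transcripts are used as marks of recent activity, and their protein products are needed for late potentiation and memory.

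Upstream sequences of the activity-regulated genes with the largest differences are printed here because CREB acts through a short element, the CRE, that can be read in them. Of the 8 panel genes named below as higher with no overlap between the groups, 6 had a promoter in the RefSeq table of build GRCm38.p6. The 3 with the largest fold changes are printed 5′ to 3′ over the 250 bases before the annotated start, with capitals at each match to the CRE half-site, searched as TGACG on either strand (CGTCA on the printed strand). Touching matches that together spell the full CRE, TGACGTCA, form 1 run of capitals.
Npas4, chr19:4989972-4990221 on the minus strand: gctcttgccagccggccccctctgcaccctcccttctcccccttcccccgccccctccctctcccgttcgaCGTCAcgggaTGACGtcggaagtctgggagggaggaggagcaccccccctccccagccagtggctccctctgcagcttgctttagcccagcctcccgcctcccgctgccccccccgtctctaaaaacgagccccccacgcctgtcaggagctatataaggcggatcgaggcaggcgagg
Btg2, chr1:134079156-134079405 on the minus strand: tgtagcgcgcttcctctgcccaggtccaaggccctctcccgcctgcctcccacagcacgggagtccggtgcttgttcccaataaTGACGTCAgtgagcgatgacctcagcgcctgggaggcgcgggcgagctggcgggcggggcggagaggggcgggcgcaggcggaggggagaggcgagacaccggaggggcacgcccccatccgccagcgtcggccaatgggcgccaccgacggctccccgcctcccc
Fos, chr12:85473640-85473889 on the plus strand: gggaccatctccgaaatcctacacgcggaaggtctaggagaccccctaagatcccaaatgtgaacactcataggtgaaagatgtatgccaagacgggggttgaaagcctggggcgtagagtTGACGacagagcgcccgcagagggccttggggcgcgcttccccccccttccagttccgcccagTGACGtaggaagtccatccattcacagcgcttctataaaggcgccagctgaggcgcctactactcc
Npas4 and Fos hold 2 half-sites each and no full CRE, and Btg2 holds 1 full CRE. The promoter of Dusp1 also holds a full CRE, Junb holds 1 half-site, and Gadd45g holds none of these letters in the window. Over all 32851 promoters of the table, 1.55% hold the full CRE and 17.8% a half-site in the same 250 bases. A match is a description of the letters and not a bound site.

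The libraries were deep and close to one another. Total counts were 49.8, 41.1 and 49.0 M in STET_S100 and 52.8, 37.2 and 36.3 M in Control, and the biological coefficient of variation over all 12 libraries was 8.25%. Markers of CA1 pyramidal neurons were abundant, for instance Mpped1 at 327 to 335 CPM (counts per 1 M reads of the library total, scaled by TMM, the trimmed mean of M-values) in STET_S100 and 340.4 to 382 CPM in Control. Transcripts of tissues outside the dissected field differed from library to library. Ttr, which encodes transthyretin and is made by the choroid plexus, was at 1841, 2798 and 12.2 CPM in STET_S100 and at 233, 1167 and 183 CPM in Control. Fabp4, a lipid-binding protein gene of adipose tissue, was at 7.67 CPM in STET_S100 1 and 8.09 CPM in Control 3, and the highest of the 4 remaining libraries had 0.109 CPM. The albumin gene Alb was at 8.31 CPM in STET_S100 1 and at 8.47 CPM in Control 3.

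No gene passed between STET_S100 and Control in the quasi-likelihood test of edgeR at an adjusted p of 0.05, 0% of the genes tested, and the smallest adjusted p was 0.902. An unadjusted p under 0.05 was reached by 1006 genes, 5.16%, of which 506 were higher and 500 lower in STET_S100. The 3 STET_S100 libraries lay above all 3 Control libraries in 1012 genes (5.19%) and below all of them in 960 genes (4.93%), together 10.1% of the genes tested. The median absolute log2 fold change was 0.08, beside a median standard error (SE) of 0.10, and 58.8% of the genes lay within 0.1 of 0. Among alternatives, DESeq2 called 3 genes (Arc, Sstr3 and Ndufb9; 803 genes at an unadjusted p under 0.05) and limma-voom 0 (1031 such genes). A fit of the 6 libraries alone called 1, the neuronal RNA gene Bc1.

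**Figure D1:**
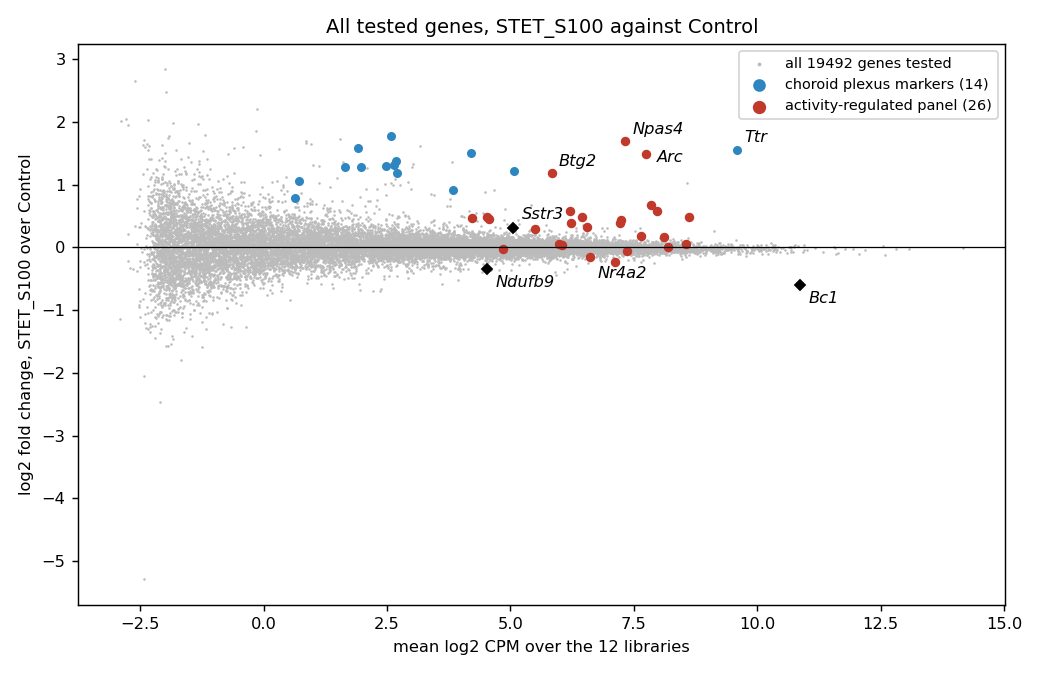
Log2 fold change of STET_S100 over Control against mean log2 CPM for the 19492 genes tested. Grey points are all genes, red points the 26 activity-regulated genes, blue points the 14 choroid plexus markers, and black diamonds Sstr3, Ndufb9 and Bc1. Most genes lie near 0, and among well expressed genes Npas4, Arc, Btg2 and 12 of the 14 choroid plexus markers lie above 1.

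The activity-regulated genes with the largest differences were Npas4, Arc and Btg2, and none of the 26 passed the adjusted threshold. Of the 26 genes of the panel 22 had a positive log2 fold change and the median was 0.39, beside 50.8% positive and a median of 0.00 over all genes. Libraries did not overlap in 9 of them: Fos, Junb, Npas4, Ier2, Arc, Btg2, Dusp1 and Gadd45g lay above all Control libraries in STET_S100, and Nr4a2 lay below. Over all genes tested 5.19% lay above and 4.93% below. An unadjusted p under 0.05 was reached by 10, all of them higher, against 2.6% of all genes. The panel was listed with earlier results of these libraries known, so its count is a description.

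Arc (ENSMUSG00000022602), whose protein drives the endocytosis of AMPA receptors and whose mRNA travels to active dendrites, stood at 170.0, 399 and 241 CPM in STET_S100 and at 94.1, 115 and 80.5 CPM in Control. All STET_S100 libraries were above all Control libraries, and STET_S100 2 was the highest. The mean was 2.79 times that of Control, and the log2 fold change was 1.48 ± 0.33 (SE, n = 3 each; 95% interval 0.71 to 2.25; edgeR adjusted p = 0.902, and 0.0483 to 0.999 over the alternatives). Npas4 (ENSMUSG00000045903), a transcription factor of neurons induced by calcium entry, stood at 114, 326 and 177 CPM in STET_S100 and at 54.7, 75.3 and 61.4 CPM in Control. Its groups did not overlap either, and STET_S100 2 was again the highest. The log2 fold change of Npas4 was 1.69 ± 0.41 (95% interval 0.75 to 2.63). Btg2 (ENSMUSG00000020423), an adaptor of the mRNA deadenylase complex that slows proliferation, stood at 49.6, 103 and 62.1 CPM in STET_S100 and at 30.2, 36.4 and 27.7 CPM in Control. The lowest STET_S100 library was above the highest Control library, and the log2 fold change was 1.18 ± 0.30 (95% interval 0.50 to 1.87). Left out 1 at a time, single libraries moved the log2 fold change of Arc between 1.09 without STET_S100 2 and 1.73 without STET_S100 1, that of Npas4 between 1.19 and 1.98, and that of Btg2 between 0.83 and 1.39. In the robust fit Arc had 0.157 prior degrees of freedom, against a median of 8.90 over genes, so its error rested almost wholly on its own 12 values.

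**Figure D2:**
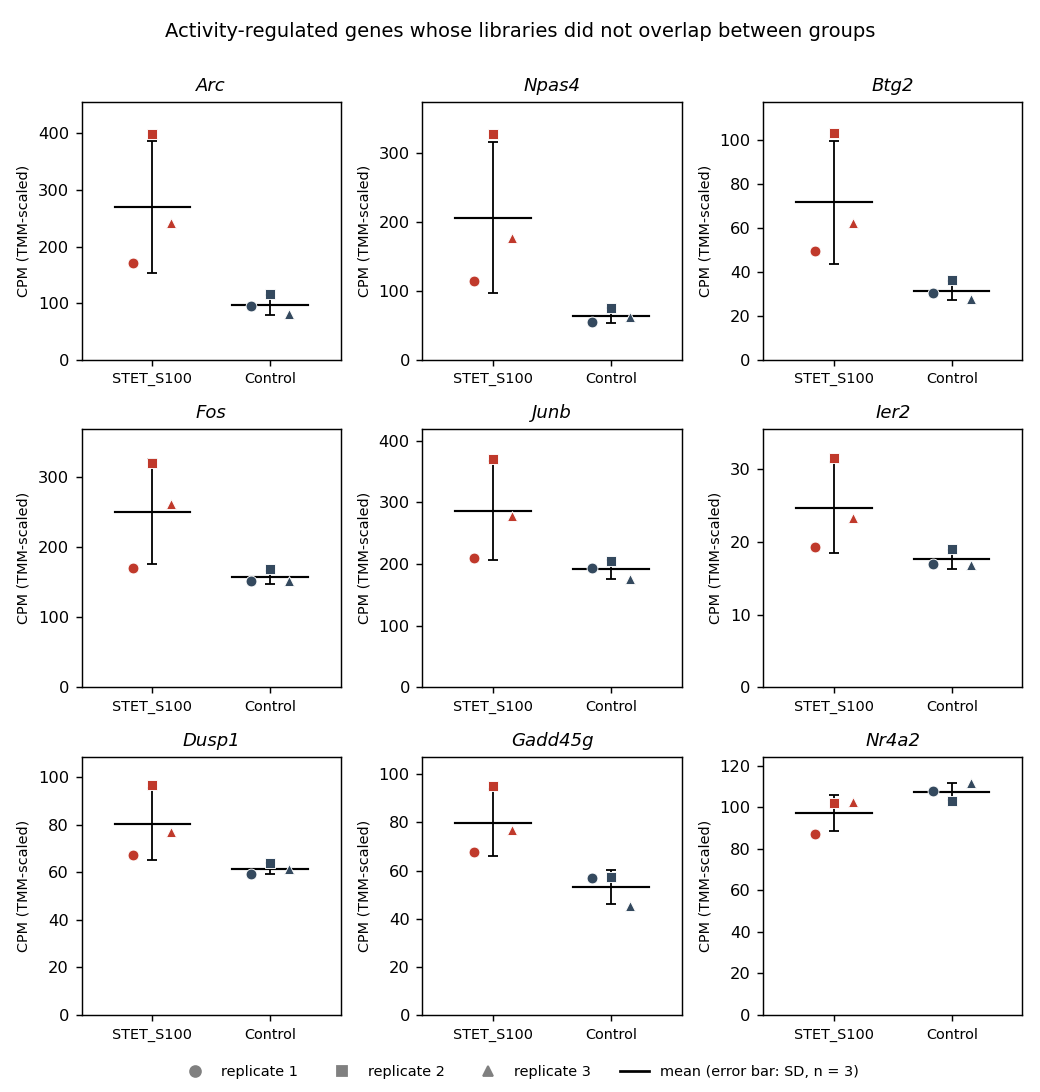
CPM of the 9 activity-regulated genes whose groups did not overlap, with STET_S100 on the left and Control on the right of each plot. Symbols are single libraries by replicate, horizontal lines the group means and bars the SD (n = 3 each). In all genes but Nr4a2 the square of STET_S100 2 is the highest point and the circle of STET_S100 1 the lowest of its group.

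Among inducible transcription factors the AP-1 genes differed in size. Fos, whose product pairs with Jun proteins to form AP-1, stood at 171, 319.8 and 261 CPM in STET_S100 and at 151, 168 and 152 CPM in Control, a log2 fold change of 0.67 ± 0.23. STET_S100 1 lay only just above the highest Control library. Junb stood at 210.3, 371 and 278 CPM in STET_S100 and at 193, 205 and 175 CPM in Control (0.58 ± 0.18). Ier2, a nuclear protein gene of the same early wave, was at 19.3, 31.5 and 23.3 CPM in STET_S100 and at 16.9, 19.1 and 16.8 CPM in Control (0.49 ± 0.16). Fosb, whose long-lived splice form builds up with repeated activity, overlapped between the groups (0.17 ± 0.14).

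The Egr zinc finger genes, which act through GC-rich promoter elements, had positive values and overlapped with Control. Their log2 fold changes were 0.48 for Egr1, 0.46 for Egr2, 0.19 for Egr3 and 0.39 for Egr4. Egr2 was at 14.8, 32.4 and 27.3 CPM in STET_S100 and at 15.6, 21.4 and 17.2 CPM in Control, so STET_S100 1 was the lowest of the 6 libraries. The orphan nuclear receptor genes differed in sign. Nr4a1 had a log2 fold change of 0.44, Nr4a3 of −0.23, and Nr4a2 of −0.15 ± 0.07. Nr4a2 was at 87.1, 102 and 102 CPM in STET_S100 and at 108, 103 and 112 CPM in Control, without overlap but with a small gap. The 30 genes listed as inducible transcription factors had a median of 0.14 with 22 positive, and 0.054 to 0.21 over the alternatives, lowest without STET_S100 2. Summed, they were at 2897, 4274 and 3718 CPM in STET_S100 and at 2965, 3206 and 2806 CPM in Control, so STET_S100 1 lay within the Control range.

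Synaptic and secreted effectors other than Arc showed smaller values. Arl4d, a small GTPase gene, was at 10.8, 20.4 and 9.07 CPM in STET_S100 and at 7.88, 7.34 and 7.22 CPM in Control, a log2 fold change of 0.84 ± 0.34. Nptx2, a secreted pentraxin that clusters AMPA receptors, had a log2 fold change of 0.33 ± 0.14 and overlapped between the groups. Inhba, the activin subunit gene (0.47 ± 0.41), and the prostaglandin synthase gene Ptgs2 (0.49 ± 0.30) had errors close to their size. Ptgs2 was at 76.5, 111 and 125 CPM in STET_S100 and at 89.3, 81.6 and 50.6 CPM in Control. Bdnf, the neurotrophin of late potentiation, was at 59.0, 63.9 and 76.9 CPM in STET_S100 and at 76.6, 73.2 and 44.8 CPM in Control, with a log2 fold change of 0.03 ± 0.24. Homer1 (0.01 ± 0.08), the scaffold of group I glutamate receptors, and Plk2 (0.05 ± 0.05), a kinase of spine weakening, were close to 0. The gene counts of Homer1 and Bdnf do not part their activity-induced transcripts from the others. Over the 27 effectors the median was 0.08 and 22 were positive. Of them 3 lay above all Control libraries and 1 below, where 5.19% and 4.93% of all genes did.

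Genes that damp signalling or clear mRNA had a median of 0.14 over 31 genes, 22 of them positive. Gadd45g, a stress sensor of the growth arrest family, was at 67.6, 95.0 and 76.9 CPM in STET_S100 and at 56.9, 57.3 and 45.2 CPM in Control, a log2 fold change of 0.58 ± 0.14. Its relative Gadd45b was at 0.05 ± 0.08. Dusp1, a phosphatase that switches off MAP kinases, was at 67.1, 96.9 and 77.1 CPM in STET_S100 and at 59.4, 64.0 and 61.4 CPM in Control (0.38 ± 0.14). The mRNA decay factors Zfp36 (0.29 ± 0.11) and Zfp36l1 (0.35 ± 0.11) were alike in size, and of these Zfp36l1 did not overlap between the groups. The kinase gene Sik1 (−0.03 ± 0.10) and the clock gene Per1 (−0.06 ± 0.06), both targets of CREB, were near 0.

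The panel genes ranked the 3 STET_S100 libraries alike. STET_S100 2 was the highest of the 3 libraries in 20 of the 26 genes (76.9%, against 33.9% of the 14950 genes whose mean log2 CPM was 0 or more). STET_S100 1 was the lowest in 25 of them (96.2%, against 32.2%). The SD of log2 CPM was larger in STET_S100 than in Control in 20 of 26 genes, with a median of 0.26 in STET_S100 and 0.13 in Control, while over the 14950 genes the medians were 0.08 and 0.09. STET_S100 1 was also the STET_S100 library with Fabp4, and STET_S100 2 the one with the most Ttr. With a term for Fabp4 the log2 fold change was 1.44 for Arc and 1.62 for Npas4, and with a choroid plexus score as covariate 1.44 and 1.63.

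**Figure D3:**
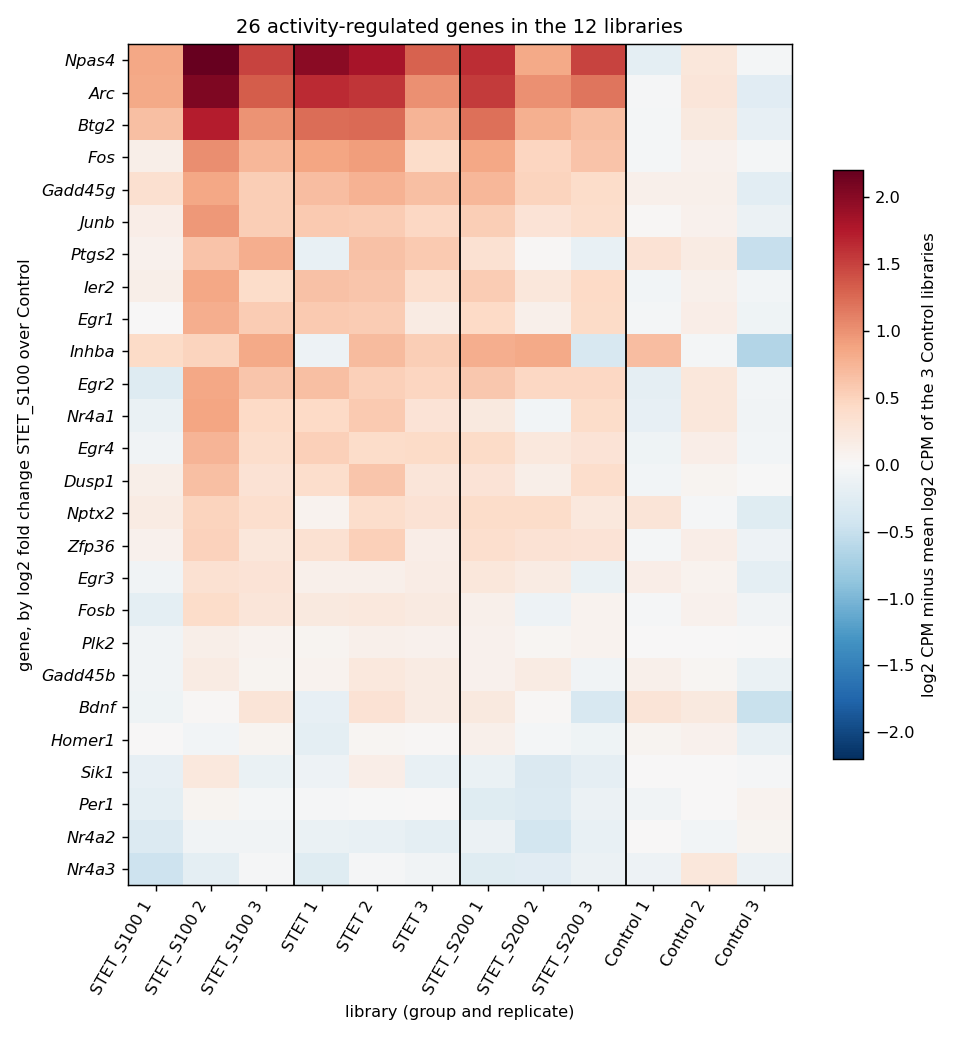
Log2 CPM of the 26 activity-regulated genes (rows, ordered by log2 fold change of STET_S100 over Control) in the 12 libraries (columns), relative to the mean of the 3 Control libraries. Red is higher and blue lower. Npas4, Arc and Btg2 are red in all 9 stimulated libraries, darkest in STET_S100 2, and STET_S100 1 is the palest STET_S100 column.

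In STET and STET_S200 slices Arc, Npas4 and Btg2 also lay above Control in every library. Arc was at 297, 285 and 191 CPM in STET and at 277, 193 and 215 CPM in STET_S200, and its log2 fold change was 0.07 ± 0.32 for STET_S100 over STET and 0.24 ± 0.32 for STET_S100 over STET_S200. For Npas4 these differences were −0.03 ± 0.39 and 0.34 ± 0.39, and for Btg2 0.10 ± 0.29 and 0.28 ± 0.29. All 3 overlapped between the tetanized groups. Of the panel 12 genes were positive against STET (median −0.04) and 20 against STET_S200 (median 0.09), and 0 of 26 were without overlap in either comparison, where 9.6% and 9.34% of all genes were. Set side by side, the panel medians against Control were 0.39 for STET_S100, 0.34 for STET and 0.29 for STET_S200, values that share the 3 Control libraries.

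Of the genes whose mean log2 CPM was 0 or more, the smallest p on the higher side belonged to Sstr3 (ENSMUSG00000044933), a somatostatin receptor of the neuronal primary cilium. It stood at 34.7, 36.6 and 34.6 CPM in STET_S100 and at 28.9, 30.3 and 25.99 CPM in Control. The groups did not overlap and the libraries of each were close, with a log2 fold change of 0.31 ± 0.06 (edgeR adjusted p = 0.902, and 8.63e-04 to 0.999 over the alternatives). The lowest of these came from edgeR with no filter on low counts, and DESeq2 gave an adjusted p of 0.0483. STET had 31.7, 31.8 and 30.7 CPM, between the groups, and STET_S200 38.4, 37.8 and 34.3 CPM. The pro-neuronal transcription factor gene Neurod2 was at 143, 143 and 139 CPM in STET_S100 and at 127, 126 and 128 CPM in Control (0.16 ± 0.04). Mcu, the pore of the mitochondrial calcium uniporter, was at 44.1, 43.6 and 45.4 CPM in STET_S100 and at 39.8, 39.5 and 37.3 CPM in Control (0.19 ± 0.05). The other 7 of the 10 genes with the smallest p on this side were Ubtd1 (0.38), the splicing factor Cdc40 (0.22), the kinase anchor Akap13 (0.26), Zfp984 (0.55), the cap-binding gene Ncbp3 (0.22), the translation factor gene Eif2s3y (0.20) and the Nogo receptor relative Rtn4rl1 (0.23). Each of these 10 lay above all Control libraries, which choosing them by p in the same libraries favours, and none passed.

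On the lower side Ndufb9 (ENSMUSG00000022354), a subunit of respiratory complex I, came first. It stood at 21.0, 20.3 and 18.8 CPM in STET_S100 and at 23.2, 28.0 and 25.3 CPM in Control, with no overlap and a log2 fold change of −0.35 ± 0.07 (edgeR adjusted p = 0.902, and 0.00323 to 0.999 over the alternatives). Here too the lowest came from edgeR with no filter on low counts, and DESeq2 gave an adjusted p of 0.0483. Gli3, a transcription factor of Hedgehog signalling, was between 12.7 and 14.96 CPM in STET_S100 and between 15.8 and 18.2 CPM in Control (−0.31 ± 0.07). The other 8 of the 10 with the smallest p on this side were Rnf169 (−0.22), Ylpm1 (−0.21), the septin gene Sept5 (−0.22), the ribosomal protein genes Rpl19 (−0.19) and Rps29 (−0.23), the adhesion molecule Ncam1 (−0.14), the growth factor binding gene Igfbp5 (−0.21) and the potassium channel Kcnk10 (−0.30). Each of the 10 lay below all Control libraries, again favoured by the choice by p, and none passed.

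Bc1, a short RNA of dendrites that represses translation in rodent neurons, was named after its values were seen. It stood at 1469, 1557 and 1407 CPM in STET_S100 and at 2136, 2404 and 2175 CPM in Control, with no overlap and a log2 fold change of −0.60 ± 0.15. In STET it was at 1932, 2067 and 1769 CPM, and in STET_S200 at 1329, 1994 and 2098 CPM. STET_S100 thus lay below every STET library, and the STET_S200 libraries were split. Fitted without the other 2 groups, Bc1 passed (edgeR adjusted p = 0.00127), while with all 12 libraries the adjusted p was 0.902, and over the alternatives it ran up to 0.995. Bc1 is transcribed without a long poly(A) tail, and its counts come from poly(A) libraries.

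**Figure D4:**
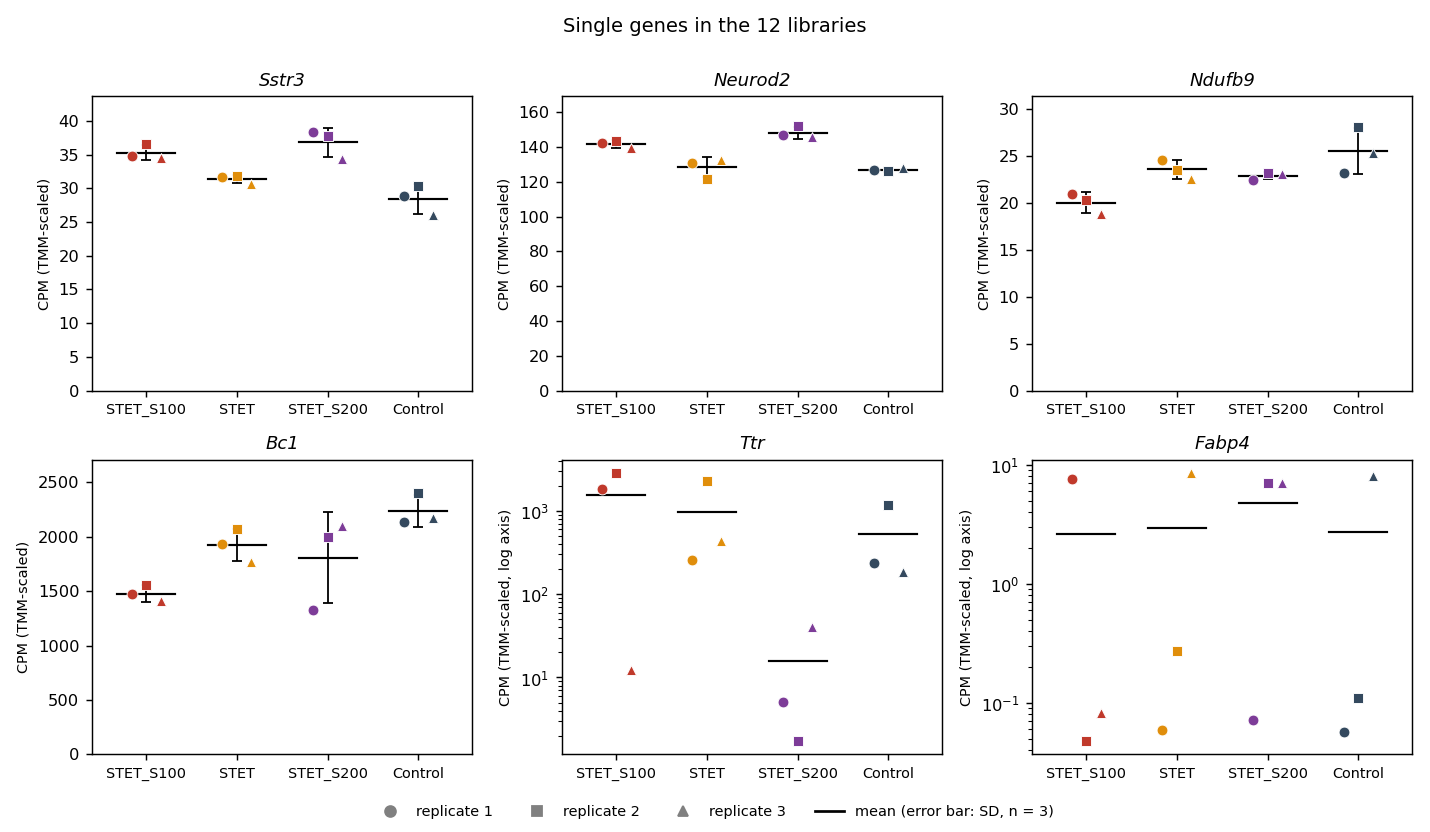
CPM of 6 single genes in the 12 libraries, with groups from left to right STET_S100, STET, STET_S200 and Control. Symbols are single libraries by replicate, lines the group means, and bars the SD (n = 3 each) on the linear axes; Ttr and Fabp4 are on log axes. Sstr3 and Neurod2 are higher and Ndufb9 and Bc1 lower in every STET_S100 library than in every Control library, and Ttr and Fabp4 vary within groups.

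Genes of synaptic transmission had small values, mostly below 0. Of 20 AMPA receptor genes 8 were positive, with a median of −0.02. The AMPA receptor partner Shisa9 was at 59.0, 59.1 and 57.7 CPM in STET_S100 and at 70.4, 65.8 and 63.9 CPM in Control, a log2 fold change of −0.19 ± 0.05 without overlap. Gsg1l (−0.40 ± 0.22) and the trafficking protein gene Cacng3 (−0.17 ± 0.07) overlapped. Of 7 NMDA receptor genes 2 were positive, with a median of −0.05. One of these, Grin3b, named after its values were seen, lay above all Control libraries at under 1 CPM, with 0.857, 0.790 and 0.806 CPM in STET_S100 and 0.529, 0.764 and 0.410 CPM in Control. Grin2b, the subunit that dominates early in life and slows the channel's decay, was at 806, 834 and 847 CPM in STET_S100 and at 876, 937 and 920.5 CPM in Control, a log2 fold change of −0.14 ± 0.04 without overlap. Grin2c was at −0.18 ± 0.07 and Grin3a at −0.10 ± 0.07, both with overlap. All 7 metabotropic glutamate receptor genes were negative (median −0.06), and Grm2, a presynaptic autoreceptor, was at 26.3, 28.4 and 22.1 CPM in STET_S100 and at 34.8, 33.4 and 30.8 CPM in Control (−0.37 ± 0.13). Of 14 GABA-A receptor genes 4 were positive (median −0.04), with Gabrq at −0.47 ± 0.18 and Gabrb2 at −0.10 ± 0.05.

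The release machinery had 11 of 42 genes positive and a median of −0.04. Of the 42, 0 lay above all Control libraries and 3 below, where 5.19% and 4.93% of all genes did. The lowest log2 fold change was that of Slc17a6 (−0.51). Pclo, the active zone scaffold piccolo, was at 323, 328 and 355 CPM in STET_S100 and at 386, 385 and 376 CPM in Control, a log2 fold change of −0.19 ± 0.05. Syn3, a vesicle-tethering synapsin gene, was at 10.5, 10.2 and 10.5 CPM in STET_S100 and at 12.6, 13.2 and 11.2 CPM in Control (−0.25 ± 0.09). Neither overlapped, and in both genes STET libraries reached down into the STET_S100 range. Postsynaptic scaffolds had 6 of 21 positive (median −0.02), with the densin gene Lrrc7 at −0.11 ± 0.05 and Homer3 at 0.16 ± 0.09. Among 32 kinases of plasticity 7 were positive (median −0.02). Of these kinases 1 lay above all Control libraries and 2 below, where 5.19% and 4.93% of all genes did. The one above was Prkca, a calcium-dependent protein kinase C. It was at 207, 190.2 and 224 CPM in STET_S100 and 173, 185 and 159 CPM in Control (0.27 ± 0.11). The PI3 kinase subunit gene Pik3r1 was 1 of the 2 below (−0.09 ± 0.04).

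Receptors for the modulators that reach CA1 from the brainstem and forebrain had medians near 0. These were 0.00 over 12 adrenergic and dopamine receptor genes, −0.01 over 14 acetylcholine receptor genes and −0.03 over 12 serotonin receptor genes. Adrb1, the beta-1 adrenergic receptor, was at 30.3, 37.8 and 38.3 CPM in STET_S100 and at 30.1, 30.1 and 31.3 CPM in Control, overlapping through STET_S100 1 (0.22 ± 0.08). The dopamine receptor genes Drd1 (−0.32) and Drd2 (−0.32) had larger values of the other sign. All 12 adrenergic and dopamine receptor genes overlapped between the groups. The serotonin receptor genes split, with Htr6, a receptor of neuronal cilia, at 0.30 ± 0.12 without overlap and Htr1b at −0.38 ± 0.13 and Htr2a at −0.29 ± 0.13 with overlap. Sgk1, a kinase gene induced by corticosteroids and by activity, was at 117, 141 and 121 CPM in STET_S100 and at 105, 109 and 91.0 CPM in Control (0.31 ± 0.12, no overlap), while the glucocorticoid target Tsc22d3 was at −0.25 ± 0.14. The 17 genes of that list had a median of −0.01. Among voltage-gated channels, the calcium channel subunit Cacnb2 (0.19 ± 0.07) lay above all Control libraries and Cacna1e (−0.12 ± 0.04), Scn3b (−0.11 ± 0.04) and Cacna2d2 (−0.11 ± 0.06) below, and the 23 genes had a median of −0.02. The 67 potassium channel genes had a median of −0.01, and 7 of them lay below all Control libraries and 1 above, where 4.93% and 5.19% of all genes did. Of 25 genes of the primary cilium, to which Sstr3, Htr6 and Gli3 belong, 16 were positive and the median was 0.03.

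Ribosomal protein genes lay mostly below STET and close to Control, by small amounts. Against Control 26 of 88 were positive, the median was −0.02, and 11 lay below all Control libraries and 2 above, where 4.93% and 5.19% of all genes did. Against STET 8 were positive, the median was −0.07, and 44 lay below every STET library and 0 above, where 4.87% of all genes lay below and 4.73% above. Rps29 was at 185, 180.3 and 168 CPM in STET_S100 and at 232, 239 and 211 CPM in STET, a log2 fold change of −0.36 ± 0.06 (edgeR adjusted p = 0.614), and at 190.5, 207 and 228 CPM in Control. Rpl38 (−0.25 ± 0.05) and Rpl39 (−0.25 ± 0.05) followed, and none of the 3 passed. STET had a median of 0.06 over Control with 79 of 88 positive and STET_S200 one of −0.02 with 30 positive, values that share the Control libraries. Ribosomal protein genes have many processed copies, so the counts may have been split between them. Nuclear genes of complex I (36 genes) and of complexes II to V (49 genes) had medians of 0.00 against Control, and the 15 mitochondrially encoded genes one of −0.10 with 1 positive. Against STET these lists were lower too, so that position was not particular to ribosomal protein genes. In complex I 6 genes were positive against STET (median −0.06), and 10 lay below every STET library and 0 above. In complexes II to V 11 were positive (median −0.06), with 17 below and 2 above. STET over Control was positive in 29 of the 36 and 39 of the 49.

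Markers of glia were mostly lower, by small amounts. All 20 microglia markers were negative (median −0.11), and 4 lay below all Control libraries, where 4.93% of all genes did. STET_S200 over Control likewise had 0 of 20 positive (median −0.15), and STET had 9 positive (median −0.02), values that share the Control libraries. P2ry12, the ADP receptor of resting microglia, was at 8.97, 9.05 and 8.80 CPM in STET_S100 and at 9.42, 11.6 and 12.4 CPM in Control (−0.31 ± 0.11), and P2ry13 was at −0.62 ± 0.22. Summed over the list, microglia markers were at 409 to 465 CPM in STET_S100 and 446 to 476 CPM in Control, ranges that overlap. In such bulk samples fewer cells of a type and less RNA per cell cannot be told apart. Astrocyte markers had 2 of 19 positive (median −0.05), with Fgfr3 at −0.14 ± 0.05 below all Control libraries. Precursor cells of oligodendrocytes had 1 of 11 markers positive (median −0.06), with Gpr17 at −0.20 ± 0.06, and oligodendrocyte markers 4 of 16 (median −0.06). Neuron markers had a median of −0.02 and interneuron markers of 0.01. The capillary marker Cldn5 was at 18.6, 21.1 and 20.0 CPM in STET_S100 and at 15.6, 18.2 and 16.9 CPM in Control (0.24 ± 0.08), while the 21 vascular markers had a median of −0.03.

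Markers of the fields next to CA1 had positive medians, 0.15 for 13 markers of CA2 and CA3 (10 positive) and 0.13 for 9 of the dentate gyrus (8 positive), and the 9 CA1 markers had −0.05 (1 positive). The median log2 fold change of dentate gyrus markers ran from −0.22 to 0.33 over the alternatives. It was negative with the libraries low in Fabp4 (−0.22), without Control 3 (−0.12) and without STET_S100 1 (−0.0057). Map3k15, a CA2 marker, was at 3.81, 4.09 and 3.04 CPM in STET_S100 and at 2.89, 2.76 and 2.16 CPM in Control (0.48 ± 0.16). St18, a marker of CA2 and CA3, was at 25.6, 23.5 and 25.3 CPM in STET_S100 and at 19.0, 20.9 and 15.5 CPM in Control (0.43 ± 0.20). Of the 13 CA2 and CA3 markers, 2 lay above all Control libraries and 1 below, where 5.19% and 4.93% of all genes did. The lowest log2 fold change of that list was −0.45. Summed over the CA2 and CA3 list, STET_S100 had 323 to 327 CPM and Control 282 to 314 CPM. STET ran from 270 to 326 CPM, across both ranges, and STET_S200 from 285 to 310 CPM. The part of the dissection in the other differences was not tested.

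Interferon-stimulated genes, which viral RNA and cytokines induce, had 25 of 27 positive and a median of 0.14, which ran from 0.045 without Control 3 to 0.30 without Control 1. Summed, they were at 166, 188 and 166 CPM in STET_S100 and at 178, 147 and 141 CPM in Control, so the groups overlapped through Control 1. Of the 27 genes 1 lay above all Control libraries and 0 below, where 5.19% and 4.93% of all genes did. That gene, Trim30a, was at 1.65, 1.99 and 2.05 CPM in STET_S100 and at 1.17, 1.58 and 1.31 CPM in Control (0.49 ± 0.24). Genes of inflammation had 17 of 34 positive and a median of 0.00, with Il1a at −0.39 ± 0.19, Il1r1 at 0.42 ± 0.26 and Il6 at 0.31 ± 0.27, all overlapping. Heat shock genes (17) had a median of 0.00, and genes of the integrated stress response (15) one of 0.05.

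**Figure D5:**
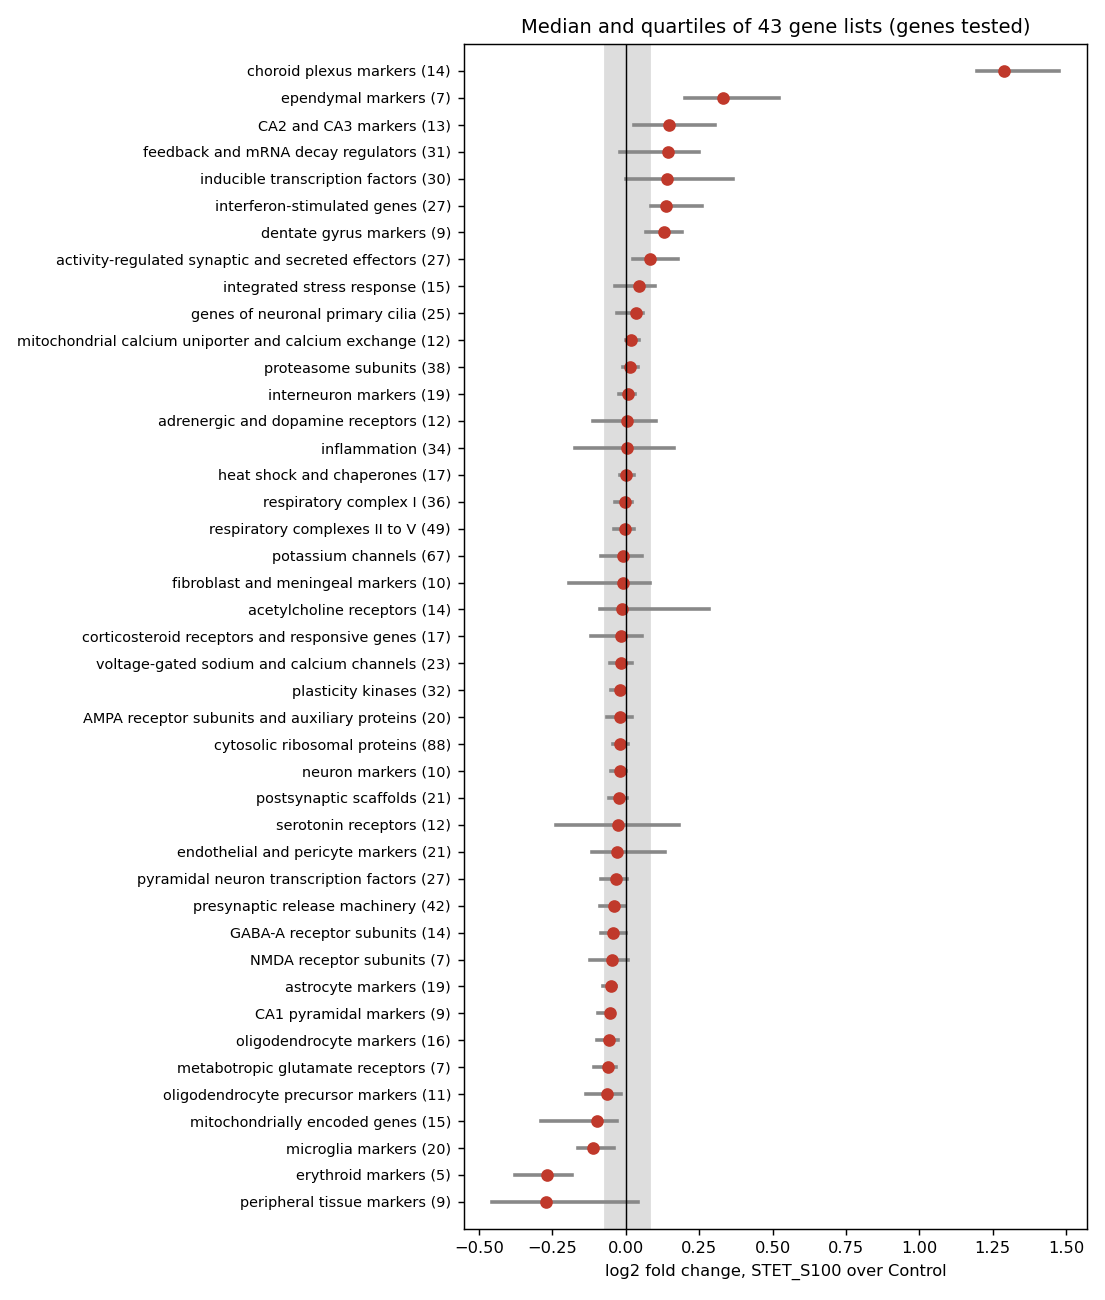
Median (points) and quartiles (bars) of the log2 fold change of STET_S100 over Control in 43 gene lists, with the number of genes tested in brackets. The vertical line is the median and the grey band the quartiles of all 19492 genes. Choroid plexus markers stand at 1.29, the activity-regulated lists between 0.08 and 0.14, and synaptic and glial lists below 0.

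The largest group of high fold changes belonged to the choroid plexus. Of the 14950 genes whose mean log2 CPM was 0 or more, 39 had an absolute log2 fold change over 1, all of them positive. Of these 12 were among the 14 choroid plexus markers, and in 33 STET_S100 3 lay below every other library of both groups while in 37 STET_S100 1 and STET_S100 2 lay above all Control libraries. The list summed to 2099, 3166 and 27.2 CPM in STET_S100 and to 272, 1356 and 223 CPM in Control, with none of the 14 at 0 in these libraries. The 14 had a median of 1.29 and all overlapped. Npas4, Arc and Btg2 were the 3 of the 39 without overlap.

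Between STET_S100 and STET, which differ by the amygdala stimulation, edgeR called 0 of 19492 genes (615, or 3.16%, at an unadjusted p under 0.05; DESeq2 called 1, Rps29, and limma-voom 0). The smallest p on the higher side belonged to Neurod2, at 131, 122 and 133 CPM in STET (0.14 ± 0.04), Hdac4, a histone deacetylase gene of class IIa (0.15 ± 0.04), and Lgr5, an R-spondin receptor gene (0.58 ± 0.17). Neurod2 in STET_S100 lay above all STET and all Control libraries, and at 147, 152 and 146 CPM it was higher still in STET_S200. Hdac4 was at 86.4, 85.0 and 87.8 CPM in STET_S100 and at 77.4, 74.7 and 81.0 CPM in STET, with Control at 84.8, 84.2 and 80.3 CPM.

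Between STET_S100 and STET_S200 edgeR also called 0 genes (1014, or 5.2%, at an unadjusted p under 0.05; limma-voom called 0 and DESeq2 5, Ttr, Clic6, Kcnj13, Tmem72 and Wdr86). Of those 5 genes Ttr, Clic6 and Kcnj13 are on the choroid plexus list. That list summed to 17.9, 13.1 and 58.5 CPM in STET_S200 and to 2099, 3166 and 27.2 CPM in STET_S100. In Control it ran from 223 to 1356 CPM and in STET from 292 to 2516 CPM, so every STET_S200 library was low in it. Without STET_S100 3, the STET_S100 library low in Ttr, edgeR called 8. The smallest p on the higher side belonged to the kinase gene Wnk4 (1.42 ± 0.31), Cux2 (0.27 ± 0.06) and Marveld2 (1.08 ± 0.26), a tight junction gene. Wnk4 was at 1.51, 2.11 and 0.909 CPM in STET_S100 and at 0.571, 0.489 and 0.629 CPM in STET_S200, ordered within STET_S100 as Ttr is. On the lower side were Tnfaip3 (−0.30 ± 0.07) and Tnfaip2 (−0.49 ± 0.12), targets of NF-kappa-B, and the long noncoding RNA gene Dubr (−0.31 ± 0.08). Tnfaip3 was at 36.5, 41.8 and 42.5 CPM in STET_S100 and at 49.8, 53.9 and 44.5 CPM in STET_S200, with no overlap, and at 42.3, 46.9 and 42.6 CPM in Control.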

How the data were processed

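RNA was measured as read counts per Ensembl gene ID, whole numbers with no scaling as the authors deposited them. Libraries were directional, from poly(A) RNA, per the labels' protocols. The tools listed in the submitters' processing notes were HTSeq 0.11.2, STAR 2.7.1a, Trimmomatic 0.39, limma and R 4.0.2. Their settings, the genome build and the strand option were not given in the sources used here. Of 55471 IDs, 55144 carried a symbol. Each library held 36.3 to 52.8 M counts. Pairs of replicates had chi-square values of 4.79 to 19.5 over their degrees of freedom, above sampling noise, so each was counted separately.

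The counts were tested with the robust quasi-likelihood test of edgeR 4.0.16 (R 4.3.3) after TMM scaling, in a single fit of the 12 libraries by group, with Benjamini-Hochberg adjustment over 19492 genes within each of 3 comparisons. Values are CPM on TMM-scaled totals and log2 fold changes ± SE. DESeq2 1.42.0, limma-voom (limma 3.58.1) and other scalings, filters and terms were alternatives. The test was tried on simulated data.

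Members and gene lists were chosen with earlier results of these data known. Named genes were the 10 higher and 10 lower with the smallest p among genes whose mean log2 CPM was 0 or more and whose symbol was not a predicted one, a panel of 26, up to 4 genes per list with the largest absolute log2 fold change at that level, the first 3 in each direction against STET and STET_S200, and Ttr, Fabp4 and Alb. Genes that only an alternative called, and those marked so, were named after their values were seen.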

Additional observations from a re-analysis of the deposited data

How the results depend on the processing

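Under RLE and upper quartile scaling, a mean count of at least 10, limma-voom, dispersion without the robust step, a threshold of 0.1, the choroid plexus covariate and the libraries with Fabp4 at or below 1 CPM, the count of genes changed stayed at 0 in all 3 comparisons. Against Control, STET and STET_S200 in that order, DESeq2 called 3, 1 and 5 genes, and edgeR with no filter on low counts called 42, 22 and 98. In that unfiltered fit the median prior degrees of freedom were infinite, so the median gene took its error from the common trend. Without both the filter and the robust step, an alternative chosen after seeing the data, 277, 130 and 423 genes passed. The compared groups alone gave 1 gene against Control, and a term for Fabp4 gave 1 against STET, Alb. Leaving out 1 library gave 0 genes against Control and STET, and 0 to 8 against STET_S200, the 8 without STET_S100 3. The causes were not tested.

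With a replicate block the 3 counts were 0, with 1072, 648 and 1155 genes at an unadjusted p under 0.05. Same-numbered STET_S100 and Control libraries correlated at −0.29 to 0.38 over genes, and those with different numbers at −0.37 to 0.31. Correlations of this kind cannot settle pairing, because transcripts from outside the field also varied within groups. Whether same-numbered libraries share mice is not stated, so the numbers were not taken as pairs. By the protocols each mouse served every group.

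Of 141 named values, 130 kept their sign under all 18 alternatives run on them. With the libraries low in Fabp4, Homer1 was at −0.070, Bdnf at −0.090, Sik1 at 0.037 and Per1 at 0.045 against Control and Npas4 at 0.079 against STET. Arc was at −0.0061 against STET by limma-voom and at −0.024 against STET_S200 with the choroid plexus covariate. Leaving out 1 library gave ranges that crossed 0 against Control for Homer1 (−0.067 to 0.054), Bdnf (−0.17 to 0.17), Gadd45b (−0.022 to 0.11), Sik1 (−0.17 to 0.047) and Per1 (−0.12 to 0.0078). Such ranges against STET were −0.33 to 0.31 for Arc, −0.54 to 0.26 for Npas4 and −0.26 to 0.30 for Btg2. Against STET_S200 they were −0.15 to 0.49 for Arc, −0.16 to 0.63 for Npas4 and −0.068 to 0.49 for Btg2, negative without STET_S100 2. Of the 43 list medians against Control, 21 kept their sign under all 18 alternatives, and the rest changed it under at least 1.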

Other observations

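Of the 14950 genes whose mean log2 CPM was 0 or more, on a list or not, 57 met 2 conditions between STET_S100 and Control. Their groups did not overlap and the absolute log2 fold change was at least 0.5, with 38 higher and 19 lower. Genes described above, such as Npas4, Arc, Btg2, Fos, Junb and Gadd45g, are among them. The genes given here were picked after their values were seen, and none passed the edgeR threshold. Hes5, an effector of Notch signalling, was at 2.07, 1.87 and 2.81 CPM in STET_S100 and at 1.74, 1.25 and 1.15 CPM in Control. Tfap4, a helix-loop-helix transcription factor gene, was at 4.03, 3.49 and 3.80 CPM in STET_S100 and at 3.27, 2.29 and 1.91 CPM in Control. The neuropeptide gene Adcyap1, which encodes PACAP, was at 4.78, 4.09 and 4.15 CPM in STET_S100 and at 9.38, 5.46 and 6.20 CPM in Control. Nmbr, the neuromedin B receptor, was at 2.77, 2.99 and 2.42 CPM in STET_S100 and at 4.52, 3.14 and 3.94 CPM in Control. In Adcyap1 the STET libraries, at 2.97 to 7.01 CPM, spanned both groups.

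Genes of inflammation lay mostly below STET. Against STET 8 of 34 were positive, their median was −0.18 on the log2 scale, and 6 lay below every STET library, where 4.87% of all genes did. STET itself had 26 of the 34 positive against Control. Il1a, an interleukin 1 gene, was at 41.0, 51.3 and 45.6 CPM in STET_S100 and at 62.6, 67.9 and 69.4 CPM in STET, with no overlap, and at 45.5, 76.8 and 59.3 CPM in Control. Oligodendrocyte markers had 1 of 16 positive against STET with a median of −0.14, and 8 lay below every STET library. STET had 16 of 16 positive against Control. Summed, these markers were at 4020.5, 4409.6 and 3324 CPM in STET_S100 and at 3602, 4871 and 3698 CPM in STET, with STET 2 apart from the other STET libraries and overlap between the groups. The list holds Enpp2, which was at 787, 1105 and 94.4 CPM in STET_S100, ordered within the group as Ttr is, and at 173, 631 and 171 CPM in Control. The sums in STET_S100 thus partly follow this gene, and they were not taken without it. These counts were picked after they were seen and were not tested.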
